A study of Homo sapiens with 12 samples.

Results

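The siRNA response of Huh7 cells was compared with that of Hep3B cells, gene by gene. The quantity is the siRNA effect in Huh7 (siRNA arrays minus negative control arrays, log2) minus the same effect in Hep3B, called here the difference between the lines. A negative difference means that the siRNA effect was lower in Huh7 than in Hep3B, and a positive one that it was higher. Genes entered if their array row carried 1 gene symbol and if, in each line, the mean of the siRNA or of the control arrays was above 5.5. This gave 7456 genes of the 22411 named rows and 66158 rows tested. The limit of 5.5 is the highest mean of 23 background rows, and a change from or to a level at or below it can be compressed, so such a value is called a lower bound. The difference of such a gene is not exact: it is an upper bound where the Hep3B rise is a lower bound, a lower bound where the Huh7 rise is one, and has no bound where both are. The genes just inside the limit were LIG1 (5.5), USP45 (5.5017) and ANAPC11 (5.502), and those just outside were UPK3B (5.4995), SNORA65 (5.4987) and ZNF461 (5.4973).

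The data are 12 arrays of total RNA taken 48 h after transfection, in 4 groups of 3. They are Huh7 cells given siRNA, Huh7 cells given negative control RNA, Hep3B cells given siRNA and Hep3B cells given negative control RNA. The study concerns a long non-coding RNA, according to its title; the labels call the treatment only siRNA and do not give its sequence, and that RNA's own level is not analysed here. Huh7 and Hep3B are single established lines from human hepatocellular carcinoma, so each stands for itself and not for a class of tumours. Nothing in the labels tells if a group's 3 arrays hold RNA of different cultures, and the p-values therefore speak only of array-to-array spread, which may be technical.

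Over the 7456 genes, Pearson's r was 0.991 to 0.998 within a group, 0.966 to 0.979 between treatments of a line and 0.88 to 0.909 between the lines. Huh7 control array 1 is called Hep3B in its description and Huh7 in every other label. It correlated with the other arrays of its group at 0.994 to 0.996 and with Hep3B arrays at 0.881 to 0.906, which is the range of a Huh7 array, and results are given with and without it. Of 10 hepatocyte markers measured, 9 were above the limit in both lines, and APOA1 was not. Their summed log2 level was 120.1 to 121.0 on Huh7 siRNA arrays, 124.8 to 124.9 on Huh7 controls, 112.9 to 114.2 on Hep3B siRNA arrays and 113.4 to 114.1 on Hep3B controls. None of 11 fibroblast and stellate markers and none of 10 endothelial markers was above the limit in both lines. Of 10 blood and macrophage markers LYZ and CD68 were above it, and of 6 cholangiocyte markers EPCAM and SOX9.

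Hepatocytes secrete fibrinogen, albumin, complement and transport proteins, under the control of liver transcription factors and of interleukin 6 during the acute phase. Both lines keep part of this programme. An interaction between line and treatment is the part of a response that one line shows and the other does not show to the same size.

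The promoters of the 3 fibrinogen chains and of 2 histone genes are shown first, because these genes were called in opposite directions in the 2 lines or in 1 line alone. Sequences are from RefSeq on GRCh38.p14 and run 5′ to 3′ on the gene's strand, from 250 bases before to 50 bases after the annotated start in the table. Capitals in the fibrinogen promoters mark CTGGGA, read on both strands, the core of the interleukin 6 response element described in fibrinogen promoters.
FGA promoter, chr4:154590693-154590992, minus strand: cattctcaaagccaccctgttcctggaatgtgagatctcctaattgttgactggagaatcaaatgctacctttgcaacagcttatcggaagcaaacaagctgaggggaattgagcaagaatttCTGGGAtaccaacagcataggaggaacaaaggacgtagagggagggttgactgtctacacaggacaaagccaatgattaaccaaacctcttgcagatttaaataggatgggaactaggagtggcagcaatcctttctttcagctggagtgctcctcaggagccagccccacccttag
FGB promoter, chr4:154562730-154563029, plus strand: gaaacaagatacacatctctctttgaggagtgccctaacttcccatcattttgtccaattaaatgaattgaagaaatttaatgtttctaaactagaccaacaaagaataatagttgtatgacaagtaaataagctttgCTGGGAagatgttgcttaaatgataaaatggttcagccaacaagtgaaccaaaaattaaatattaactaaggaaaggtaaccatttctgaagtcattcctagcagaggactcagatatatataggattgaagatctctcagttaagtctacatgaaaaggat
FGG promoter, chr4:154612607-154612906, minus strand: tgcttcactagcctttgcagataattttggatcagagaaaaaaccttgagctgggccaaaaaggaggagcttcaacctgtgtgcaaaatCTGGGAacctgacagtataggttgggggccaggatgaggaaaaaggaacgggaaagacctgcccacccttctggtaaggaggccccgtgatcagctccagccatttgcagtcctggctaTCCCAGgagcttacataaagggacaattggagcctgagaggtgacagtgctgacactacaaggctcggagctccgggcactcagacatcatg
Capitals in the histone promoters mark CCAAT, read on both strands, the box bound by NF-Y and known in histone promoters.
H1-4 promoter, chr6:26156079-26156378, plus strand: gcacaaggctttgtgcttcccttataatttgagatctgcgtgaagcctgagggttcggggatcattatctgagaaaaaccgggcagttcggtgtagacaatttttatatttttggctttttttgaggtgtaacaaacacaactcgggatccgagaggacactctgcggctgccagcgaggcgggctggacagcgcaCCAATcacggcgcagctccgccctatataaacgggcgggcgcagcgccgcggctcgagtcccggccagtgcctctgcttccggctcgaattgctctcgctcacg
H2AC6 promoter, chr6:26123922-26124221, plus strand: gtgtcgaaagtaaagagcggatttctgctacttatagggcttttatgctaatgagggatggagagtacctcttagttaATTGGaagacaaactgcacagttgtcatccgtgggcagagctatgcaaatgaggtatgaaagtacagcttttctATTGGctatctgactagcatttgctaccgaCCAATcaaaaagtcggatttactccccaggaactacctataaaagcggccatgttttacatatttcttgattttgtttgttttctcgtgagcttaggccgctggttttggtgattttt
Counted in bases from the start, with those before it negative, CTGGGA lay at -127 in FGA, at -112 in FGB, and at -161 and -42 in FGG. CCAAT lay at -54 in H1-4 and at -172, -98 and -68 in H2AC6. Among all 35116 promoter windows of the table, 33.3% hold CTGGGA and 34.6% hold CCAAT, so a match alone is common and is a description of the letters, not of a site. FGB has 2 windows in the table, of which the first is shown.

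The difference between the lines passed the test for 496 of the 7456 genes (6.65%), 231 with Huh7 above Hep3B (3.1%) and 265 with Huh7 below Hep3B (3.55%), by limma with Benjamini-Hochberg adjustment over all 66158 rows and a threshold of 0.05. Over all rows tested 1239 passed (1.87%), 0.946% above and 0.927% below. All 496 had single-array effects that did not overlap between the lines, as did 23.4% of the 7456 genes and 7.43% of all rows. Of the 496 genes, 227 responded in Hep3B alone, 131 by a rise and 96 by a fall, and 115 in Huh7 alone, 64 by a rise and 51 by a fall. Others responded the same way in both lines, more strongly in Huh7 in 30 cases and in Hep3B in 83. In 38 genes (0.51%, against 0.0967% of all rows) the responses were called in both lines with opposite signs, 19 rising in Huh7 and falling in Hep3B and 19 the other way. The remaining 3 were called in neither line. Being called in one line alone is not itself the test; the test is that of the difference, which all 496 passed.

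The absolute difference of the called genes had a median of 0.708 and ran from 0.396 to 2.8, and 106 of the 496 were at least 1. Without Huh7 control array 1, 339 genes were called, 327 of them among the 496. Leaving out another array gave fewer than 300 calls in 5 cases, 283 without Hep3B siRNA array 2, 293 without Hep3B siRNA array 3, and 281, 244 and 258 without Hep3B control arrays 1, 2 and 3. Centring arrays on their medians in place of quantile normalization gave 249, and a fit and adjustment over the 7456 genes alone gave 1518. In bulk RNA, fewer cells of a kind and less RNA per cell cannot be told apart. Far more genes, 1615, were called in the same direction in both lines, 802 rising and 813 falling, and for 1502 of them the difference was not called. Effects correlated across the 7456 genes with Pearson's r of 0.743 and Spearman's rho of 0.714, over genes that are not independent of each other. The effects had an SD over genes of 0.454 in Huh7 and 0.524 in Hep3B, and the siRNA comparison within each line called 2506 genes (33.6%, against 8.05% of all rows) in Huh7 and 3016 (40.5%, against 10.3%) in Hep3B. All 4 group means were above 5.5 for 6913 of the genes, with 464 called, and the other 543 passed through 1 group of a line, with 32 called. A gene that passed only through the group where it is high had to differ in that line, so the counts in gene lists below, which cover listed genes above the limit, are descriptions. Each is to be read beside the 6.65% called among all 7456 genes.

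**Figure D1:**
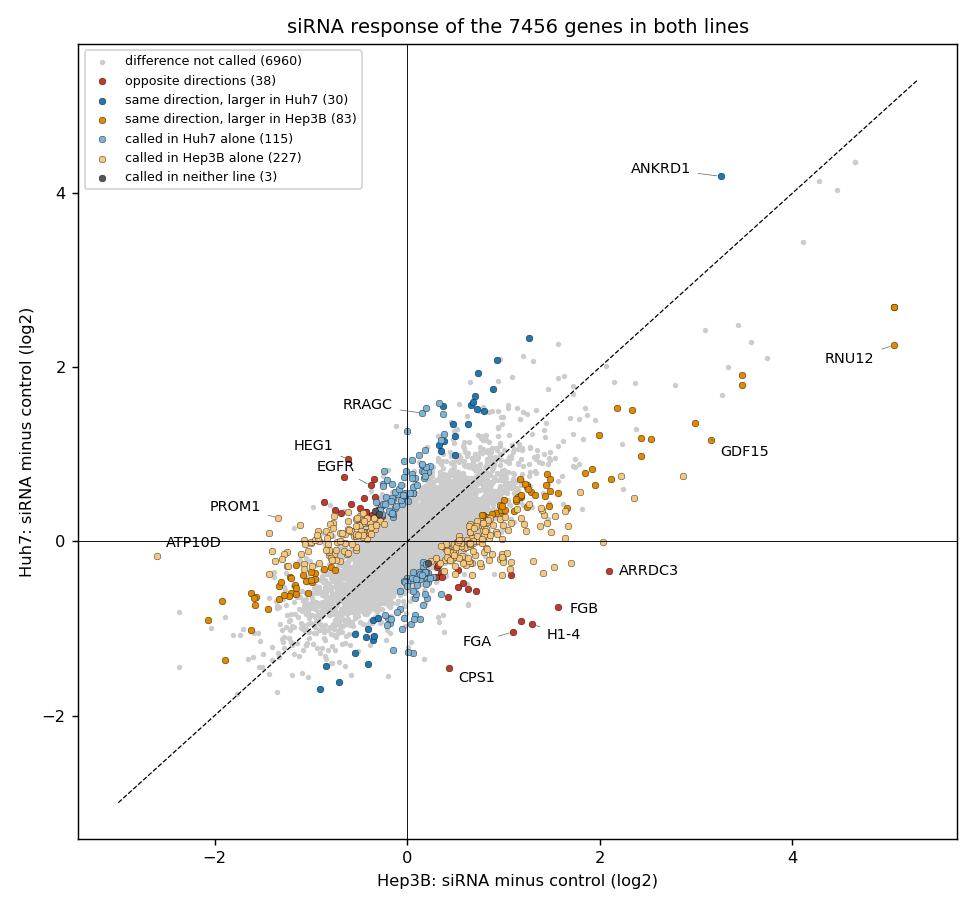
siRNA effect (siRNA minus control, log2) in Huh7 on the y axis against Hep3B on the x axis for the 7456 genes; coloured points are the 496 whose difference passed the test, by class, grey points the rest, and the dashed line marks equal effects. The 38 red points lie in the upper left and lower right corners, where the lines responded in opposite directions.

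Fibrinogen genes gave the clearest opposite responses among liver secreted proteins. FGB, the beta chain, read 15.56, 15.47 and 15.37 on the Huh7 siRNA arrays against 16.25, 16.35 and 16.07 on the Huh7 control arrays, and 9.54, 9.88 and 9.99 on the Hep3B siRNA arrays against 8.17, 8.42 and 8.11 on the Hep3B control arrays. Both lines separated fully by treatment, downwards in Huh7 and upwards in Hep3B. FGB fell to 0.592-fold of control in Huh7 (log2 -0.76 ± 0.13) and rose 2.97-fold in Hep3B (log2 1.57 ± 0.13), a difference of -2.33 ± 0.18 (SE, n = 3 arrays per group, adjusted p = 0.000403). FGA, the alpha chain, read 16.85, 16.77 and 16.81 on the Huh7 siRNA arrays against 17.78, 17.96 and 17.80 on the Huh7 control arrays, and 14.66, 15.20 and 15.31 on the Hep3B siRNA arrays against 13.94, 13.98 and 13.96 on the Hep3B control arrays. The direction was again opposite, -1.04 ± 0.13 in Huh7 and 1.1 ± 0.13 in Hep3B, and the difference was -2.14 ± 0.19 (adjusted p = 0.000572). The levels themselves drew closer: FGB stood 5.66 log2 units higher in Huh7 than in Hep3B among siRNA arrays and 7.99 among controls, and FGA 1.75 among siRNA arrays and 3.89 among controls.

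FGG, the gamma chain, read 12.19, 12.25 and 11.89 on the Huh7 siRNA arrays against 13.25, 13.52 and 13.39 on the Huh7 control arrays, and 10.06, 10.34 and 10.34 on the Hep3B siRNA arrays against 10.22, 10.11 and 10.24 on the Hep3B control arrays. It fell in Huh7 by 1.28 (adjusted p = 6.75e-05), while Hep3B siRNA and control arrays overlapped with an effect of 0.06 ± 0.12 (adjusted p = 0.867), and the difference was -1.33 ± 0.16 (adjusted p = 0.003). The 3 genes therefore shared the fall in Huh7, and only FGA and FGB rose in Hep3B by this test. Among the 11 acute phase genes measured above the limit, 5 were called in the difference (45.5%, beside 6.65% of all genes). Of these, 2 lay above and 3 below, and the 3 below were the fibrinogen genes. The 2 above were CP, the copper carrier ceruloplasmin (1.06), and C3, the central complement protein (0.93). The median difference of the 11 was -0.03, beside -0.06 over all 7456 genes.

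**Figure D2:**
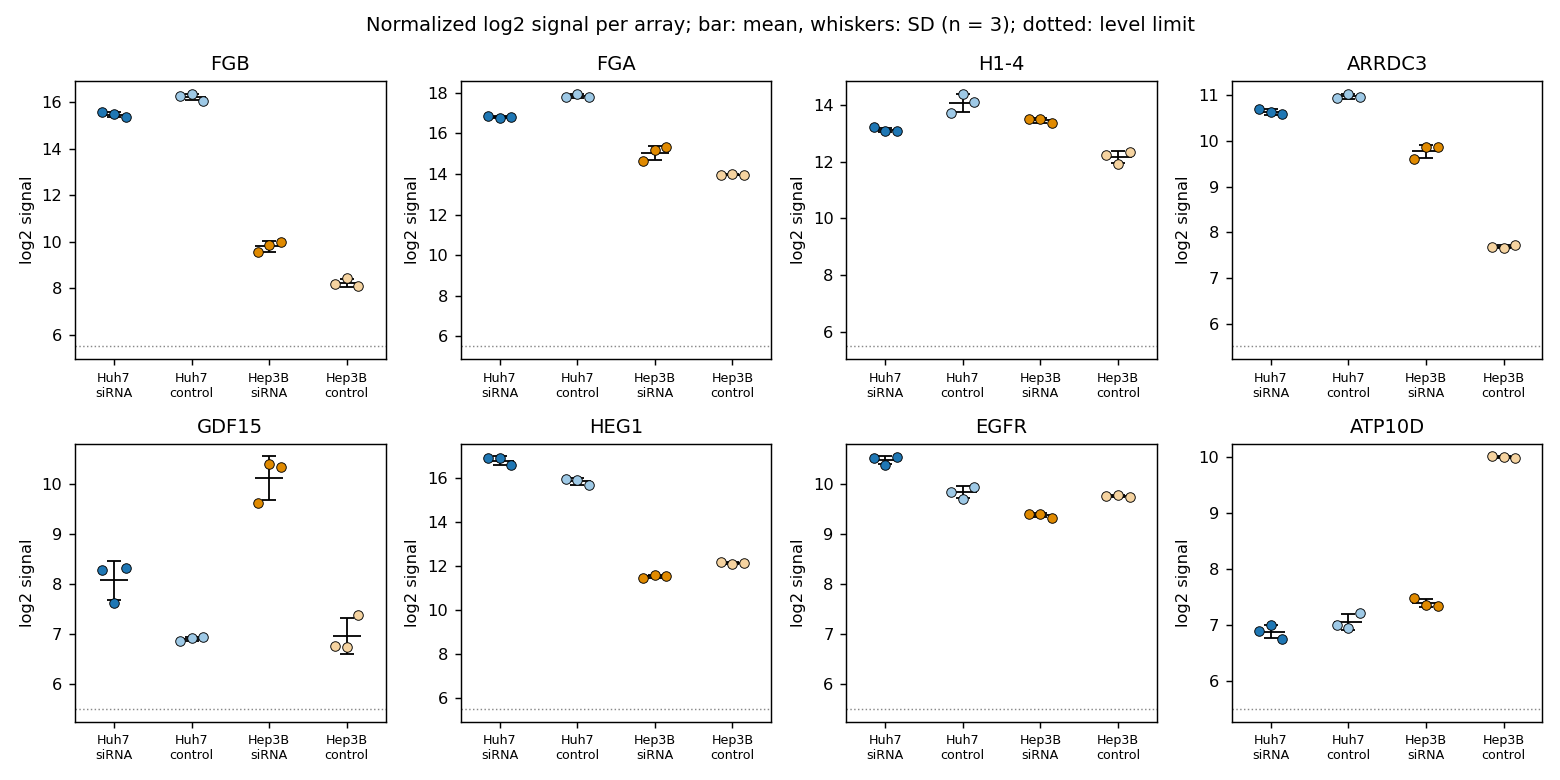
Normalized log2 signal of 8 genes on the 12 arrays, by group, with bars for means and whiskers for SD (n = 3); the dotted line marks the limit of 5.5. In FGB, FGA, H1-4 and ARRDC3 the siRNA arrays lie below control in Huh7 and above control in Hep3B, and in HEG1 and EGFR the reverse.

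Of 21 other secreted liver proteins, 16 fell in Huh7 and 16 fell in Hep3B, beside 1326 and 1387 of all 7456 genes. The difference was called for 3 (14.3%, beside 6.65% of all genes), 2 above and 1 below. ALB, albumin, read 17.06, 17.15 and 16.99 on the Huh7 siRNA arrays against 18.18, 18.15 and 18.17 on the Huh7 control arrays, and 19.01, 19.01 and 18.94 on the Hep3B siRNA arrays against 19.39, 19.43 and 19.43 on the Hep3B control arrays. It fell in both lines, by 1.1 in Huh7 and 0.42 in Hep3B, with a difference of -0.67 ± 0.07 (adjusted p = 0.00118), and its Hep3B levels were near the highest value of the table, 19.93; the part of this in the difference was not tested. TTR, transthyretin, a carrier of thyroid hormone and retinol-binding protein, fell by less in Huh7 (-0.59 ± 0.13) than in Hep3B (-1.62 ± 0.13), and so did complement C5 (-1.36 in Huh7 against -1.89 in Hep3B). Their differences were 1.03 ± 0.18 and 0.53 ± 0.09, and each call held in 10 of the 12 fits that left out 1 array.

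Of 12 hepatocyte transcription factors, ONECUT1 and FOXA2 were called (16.7%, beside 6.65% of all genes), both with Huh7 below Hep3B. The median difference of the 12 was -0.37. In Huh7 1 of them rose and 4 fell, and in Hep3B 3 rose and 1 fell. Of all 7456 genes, 1180 rose and 1326 fell in Huh7, and 1629 rose and 1387 fell in Hep3B. ONECUT1 (HNF6) averaged 11.24 ± 0.21 on Huh7 siRNA arrays against 12.86 ± 0.08 on Huh7 control arrays, and 13.31 ± 0.10 on Hep3B siRNA arrays against 14.02 ± 0.11 on Hep3B control arrays (SD, n = 3). It fell in both lines, by 1.62 in Huh7 and 0.7 in Hep3B (adjusted p = 0.0126 for the difference). FOXA2 had -0.11 in Huh7 and rose in Hep3B by 0.42, but its call held in 2 of the 12 leave-one-out fits (adjusted p up to 0.0971). AFP, alpha-fetoprotein, and GPC3, glypican 3, both used as markers of liver cancer, were not called in the difference: -0.75 ± 0.22 for AFP (95% interval -1.24 to -0.27, adjusted p = 0.138) and 0.38 ± 0.16 for GPC3 (0.04 to 0.72, adjusted p = 0.333). Both were named after their values were seen. PROM1, the oncofetal surface protein CD133, was the only 1 of 11 oncofetal genes called (9.09%, beside 6.65% of all genes). Its difference was 1.61 ± 0.13, from 0.27 ± 0.09 in Huh7 (limma, adjusted p = 0.107) and a fall in Hep3B (-1.34 ± 0.09).

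Histone genes showed the lowest median difference of the lists with 5 or more genes, -1.32 over 8 genes. Of the 8, 5 were above the limit in all 4 groups, and a gene that entered through 1 group had to differ in that line. The median and the count are therefore descriptions: 3 were called (37.5%, beside 6.65% of all genes), all with Huh7 below Hep3B. H1-4, a linker histone, read 13.20, 13.06 and 13.09 on the Huh7 siRNA arrays against 13.72, 14.37 and 14.10 on the Huh7 control arrays, and 13.50, 13.50 and 13.35 on the Hep3B siRNA arrays against 12.22, 11.91 and 12.34 on the Hep3B control arrays. It fell in Huh7 (-0.95 ± 0.15, adjusted p = 0.00265) and rose in Hep3B (1.30 ± 0.15, adjusted p = 0.000246), with a difference of -2.25 ± 0.22 (adjusted p = 0.00083) and -2.42 without Huh7 control array 1. H2AC6, a core histone of the H2A type, read 6.66, 6.70 and 6.89 on the Huh7 siRNA arrays against 6.63, 6.98 and 7.33 on the Huh7 control arrays, and 5.99, 6.36 and 6.31 on the Hep3B siRNA arrays against 4.8, 5.13 and 4.8 on the Hep3B control arrays. Its Huh7 arrays overlapped between treatments, its Hep3B arrays did not, and its Hep3B control level was at or below 5.5, so the Hep3B rise of 1.31 ± 0.17 is a lower bound (difference at most -1.54 ± 0.24, adjusted p = 0.0104). H4C3, an H4 gene, had -0.39 ± 0.15 in Huh7 and rose in Hep3B by 0.98, with a difference of -1.37 ± 0.21 (adjusted p = 0.00986). Histone genes are near-identical copies of each other, so rows may share signal. H2AC20 and H2BC15, named after their values were seen, were also called with Huh7 below Hep3B, at -1.12 and -1.06, each in 3 of the 12 leave-one-out fits.

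Some small RNAs are transcribed from promoters of their own. U1, U2, U4, U5, U11, U12 and U4atac RNAs are parts of the spliceosomes, and U3 takes part in the first cleavages of ribosomal RNA. RNU12, which makes the minor spliceosome's U12 RNA, read 6.24, 5.47 and 6.08 on the Huh7 siRNA arrays against 3.53, 3.81 and 3.70 on the Huh7 control arrays, and 8.88, 8.88 and 8.34 on the Hep3B siRNA arrays against 3.47, 3.72 and 3.76 on the Hep3B control arrays. It rose in both lines, 4.77-fold in Huh7 and 33.2-fold in Hep3B, both lower bounds because both control levels lay at or below 5.5, and the difference of -2.80 ± 0.28 (adjusted p = 0.00108) therefore has no bound. The U1 copies RNU1-12P and RNVU1-2 held identical values on all arrays, and read 12.91, 12.09 and 12.75 on the Huh7 siRNA arrays against 9.0, 10.36 and 10.32 on the Huh7 control arrays, and 14.61, 14.35 and 14.91 on the Hep3B siRNA arrays against 9.67, 9.67 and 9.35 on the Hep3B control arrays. They rose 2.69 ± 0.34 in Huh7 and 5.06 ± 0.34 in Hep3B, and the difference of -2.37 ± 0.48 (adjusted p = 0.0318) was called in 3 of the 12 leave-one-out fits (range -2.81 to -2.12), with -2.81 (adjusted p = 0.00366) without Huh7 control array 1, whose level was the lowest of its group.

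RNU5D-1, a U5 copy, read 5.87, 5.61 and 6.06 on the Huh7 siRNA arrays against 4.60, 5.40 and 5.27 on the Huh7 control arrays, and 10.24, 10.67 and 10.70 on the Hep3B siRNA arrays against 7.46, 7.84 and 7.72 on the Hep3B control arrays. Its Huh7 arrays were separated by treatment but the effect was not called there (0.76 ± 0.21, adjusted p = 0.0537), while it rose in Hep3B (2.86 ± 0.21), and the difference was -2.11 ± 0.30 (adjusted p = 0.00638). The Huh7 control level was at or below 5.5, so the Huh7 effect and the difference are lower bounds. RNU11, the partner of U12, was not called: it rose 2.29 ± 0.33 in Huh7 and 3.57 ± 0.33 in Hep3B, with a difference of -1.27 ± 0.47 (95% interval -2.31 to -0.24, adjusted p = 0.265). By family, the median difference was -0.95 for 9 distinct U1 rows, -1.24 for 2 U2 rows, -1.18 for 3 U4 rows, -0.11 for 8 U5 rows, -1.27 for U11, -2.8 for U12, -1.33 for U4atac and -0.36 for 4 U3 rows. None of the U1, U2, U4 and U3 rows was above 0, but 2 of the U1, 1 of the U2, none of the U4 and none of the U3 rows were called. The U3 row SNORD3C, named after its values were seen, rose 3.44 ± 0.48 in Huh7 and 4.11 ± 0.48 in Hep3B. Its difference of -0.67 ± 0.67 (-2.16 to 0.82, adjusted p = 0.783) was the lowest of the 4 U3 rows. SNORD3A, SNORD3B-1 and SNORD3D had -0.14, -0.29 and -0.43.

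U6 is the RNA polymerase III product that pairs with U4 in the spliceosome, and most of its rows went the other way. Of 41 distinct rows, 37 had a difference above 0, beside 3143 of all 7456 genes. The median was 0.29 and 2 were called. All of these rows but RNU6-7 (0.36, not called) are named as pseudogene copies. RNU6-49P read 7.98, 7.41 and 7.81 on the Huh7 siRNA arrays against 5.85, 6.43 and 6.14 on the Huh7 control arrays, and 7.30, 6.82 and 6.75 on the Hep3B siRNA arrays against 6.80, 6.61 and 6.46 on the Hep3B control arrays. It rose in Huh7 (1.59 ± 0.20) and had 0.33 ± 0.20 in Hep3B (adjusted p = 0.402), but its call (1.26 ± 0.28, adjusted p = 0.0485) held in 3 of the 12 leave-one-out fits and not without Huh7 control array 1 (1.11, adjusted p = 0.101). RNU6-39P, named after its values were seen, was not called (1.13 ± 0.39, 0.27 to 1.99). The 5S rows (64, median -0.18), the Y RNA rows (14, median -0.02) and the U7 rows (15, median 0.11) had no called difference. By name, most U1 rows, both U2 rows, all U7 rows and all 5S rows but RNA5S9 are pseudogene copies too. Copies of one family are near-identical in sequence, so rows are not independent and which copy gave the signal is uncertain. A row may thus report a functional gene or a pseudogene.

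**Figure D3:**
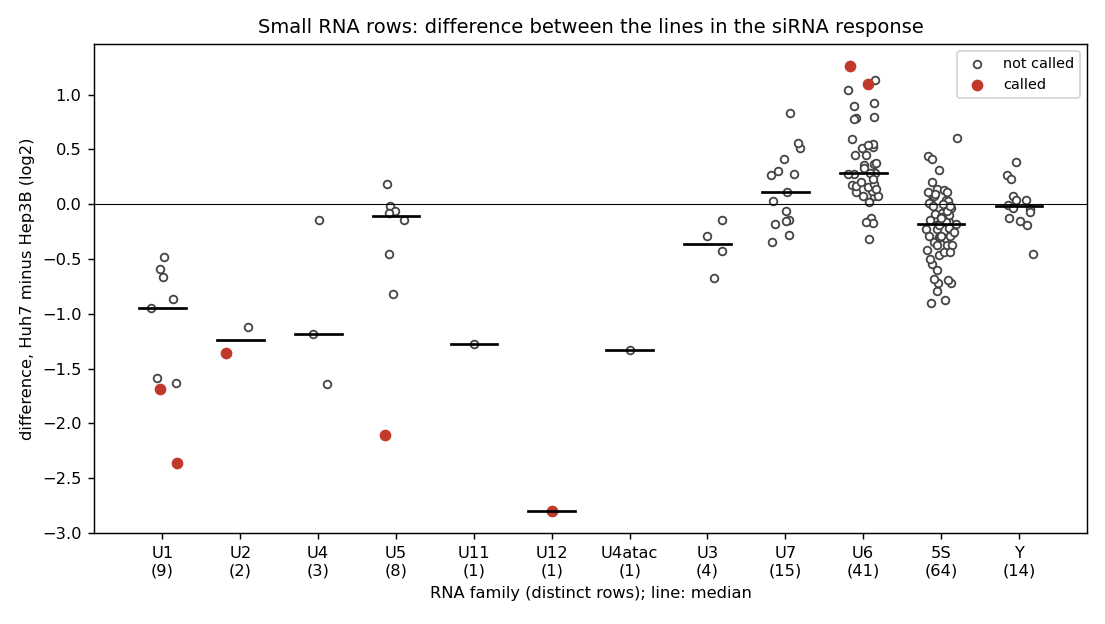
Difference between the lines (log2, Huh7 effect minus Hep3B effect) of each small RNA row by family, with the number of distinct rows under each name; filled points passed the test and the line is the family median. U1, U2, U4, U11, U12, U4atac and U3 rows lie below 0, and most U6 rows above.

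The called stress genes rose in both lines or in Hep3B alone. GDF15, a secreted stress cytokine, read 8.27, 7.62 and 8.32 on the Huh7 siRNA arrays against 6.86, 6.92 and 6.93 on the Huh7 control arrays, and 9.62, 10.39 and 10.34 on the Hep3B siRNA arrays against 6.77, 6.74 and 7.37 on the Hep3B control arrays. It rose in both lines, 2.25-fold in Huh7 and 8.93-fold in Hep3B, and the difference of -1.99 ± 0.35 (adjusted p = 0.0172) held in 9 of the 12 leave-one-out fits. Of 26 genes of the ATF4 and amino acid response, the transcriptional arm of amino acid shortage and ER stress, 5 were called, all below. The share was 19.2%, beside 6.65% of all genes, and the median difference was -0.42. All 4 groups were above the limit for 23 of the 26. SLC38A2, a neutral amino acid transporter, read 15.82, 16.04 and 15.72 on the Huh7 siRNA arrays against 15.89, 15.68 and 15.51 on the Huh7 control arrays, and 15.27, 15.72 and 15.86 on the Hep3B siRNA arrays against 14.03, 13.92 and 13.90 on the Hep3B control arrays. Its Huh7 arrays overlapped between treatments and its Hep3B arrays did not, giving 0.17 ± 0.15 in Huh7 and 1.67 ± 0.15 in Hep3B (adjusted p = 0.00623 for the difference). DDIT4, an inhibitor of mTORC1, and the transcription factor ATF3 had 0.50 and 0.35 in Huh7, neither called, and rose in Hep3B by 2.35 and 1.64. Control levels of DDIT4 and ATF3 were at or below 5.5 in both lines, so these values are lower bounds and the differences have no bound; the call held in 10 leave-one-out fits for DDIT4 and in all 12 for ATF3.

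Immediate early genes, many of them transcription factors, are switched on within minutes of a growth or stress signal. The list also holds genes that are not transcription factors, such as MCL1, which is in the BCL2 family list too. Of 26 listed, 12 were above the limit, 8 of them in all 4 groups. In Huh7 7 rose, beside 1180 of all 7456 genes, and in Hep3B all 12 rose, beside 1629. A gene that entered through its siRNA arrays alone had to read higher there than in control, so these counts are descriptions. All 12 differences lay below 0 (median -0.60), as did 4313 of all 7456 genes (median -0.06). The 3 called (25.0%, beside 6.65% of all genes) were JUNB (-1.47), ATF3 (-1.29) and KLF6 (-1.08). KLF6, a zinc finger factor, read 8.23, 8.04 and 8.03 on the Huh7 siRNA arrays against 7.32, 7.20 and 7.28 on the Huh7 control arrays, and 8.72, 9.17 and 8.92 on the Hep3B siRNA arrays against 7.10, 6.93 and 7.02 on the Hep3B control arrays. It rose in both lines, 0.83 ± 0.11 in Huh7 and 1.92 ± 0.11 in Hep3B. JUNB, an AP-1 subunit, kept its call in 1 of the 12 leave-one-out fits (adjusted p up to 0.116), and its control levels were at or below 5.5 in both lines, as were those of ATF3, so these differences have no bound. RGS2, which shortens G-protein signals, read 7.61, 7.51 and 7.16 on the Huh7 siRNA arrays against 7.30, 7.5 and 7.49 on the Huh7 control arrays, and 11.12, 11.56 and 11.56 on the Hep3B siRNA arrays against 9.24, 9.50 and 9.41 on the Hep3B control arrays. Its Huh7 arrays overlapped and it rose 4.09-fold in Hep3B (difference -2.03 ± 0.21, adjusted p = 0.00108).

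In the EGF receptor and MAPK group, 3 of 10 genes were called, beside 6.65% of all genes. EGFR, the receptor, read 10.50, 10.38 and 10.52 on the Huh7 siRNA arrays against 9.84, 9.70 and 9.94 on the Huh7 control arrays, and 9.40, 9.40 and 9.32 on the Hep3B siRNA arrays against 9.75, 9.77 and 9.74 on the Hep3B control arrays. It rose in Huh7 (0.64 ± 0.08) and fell in Hep3B (-0.38 ± 0.08), with no overlap between treatments in either line and a difference of 1.02 ± 0.11 (adjusted p = 0.00129). DUSP6, an ERK phosphatase and feedback gene, rose in Huh7 (0.76 ± 0.08) with 0.18 ± 0.08 in Hep3B, and its difference of 0.57 was called in 3 of the 12 leave-one-out fits. DUSP10, a phosphatase of JNK and p38, had 0.30 ± 0.12 in Huh7 and rose in Hep3B (1.54 ± 0.12), a difference of -1.24 ± 0.17 (adjusted p = 0.00604). MYC, named after its values were seen, rose in both lines (0.95 in Huh7 and 1.74 in Hep3B) and its difference was not called (-0.80 ± 0.21, adjusted p = 0.101). All 28 genes of the MYC network and ribosome biogenesis list lay below 0 (median -0.31), as did 4313 of all 7456 genes (median -0.06). Of the 28, 4 were called (14.3%, beside 6.65% of all genes), HEATR1, ODC1, NCL and DDX21. Genes of a list are not independent of each other. The calls of HEATR1 and DDX21 each held in 3 of the 12 leave-one-out fits, and not without Huh7 control array 1 (adjusted p = 0.0568 and 0.0726). ODC1, the first enzyme of polyamine synthesis, had 0.01 in Huh7 and rose in Hep3B by 0.73, with a difference of -0.72 ± 0.11 (adjusted p = 0.01).

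ARRDC3, an alpha-arrestin that helps to take receptors off the cell surface, read 10.71, 10.63 and 10.59 on the Huh7 siRNA arrays against 10.94, 11.04 and 10.97 on the Huh7 control arrays, and 9.60, 9.86 and 9.86 on the Hep3B siRNA arrays against 7.67, 7.66 and 7.73 on the Hep3B control arrays. It fell slightly in Huh7 (-0.34 ± 0.08, adjusted p = 0.0251) and rose 4.26-fold in Hep3B (2.09 ± 0.08), with no overlap between treatments in either line and the lowest difference of the genes with all 4 group means above 5.5, -2.44 ± 0.12 (adjusted p = 2.68e-05). Huh7 stood 0.87 log2 units above Hep3B among siRNA arrays and 3.30 among controls. TXNIP, the alpha-arrestin that binds thioredoxin and holds back glucose uptake, had 0.20 ± 0.13 in Huh7 and rose in Hep3B by 1.21 ± 0.13 (difference -1.01 ± 0.19, adjusted p = 0.022), in 7 of the 12 leave-one-out fits.

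Adhesion and surface genes were split between the directions. CDH6, a cadherin of kidney and developing tissue, read 8.07, 8.21 and 7.90 on the Huh7 siRNA arrays against 8.92, 8.99 and 9.02 on the Huh7 control arrays, and 11.43, 11.59 and 11.66 on the Hep3B siRNA arrays against 10.32, 10.39 and 10.40 on the Hep3B control arrays. CDH6 fell in Huh7 (-0.92 ± 0.09) and rose in Hep3B (1.19 ± 0.09), with a difference of -2.10 ± 0.13 (adjusted p = 0.000114). CDH2, N-cadherin, had -0.24 ± 0.08 in Huh7 (adjusted p = 0.108) and rose 1.08 ± 0.08 in Hep3B (difference -1.32 ± 0.11, adjusted p = 0.00048). HEG1, a transmembrane protein of endothelial and mesothelial junctions, read 16.89, 16.91 and 16.57 on the Huh7 siRNA arrays against 15.96, 15.89 and 15.68 on the Huh7 control arrays, and 11.47, 11.58 and 11.53 on the Hep3B siRNA arrays against 12.17, 12.11 and 12.13 on the Hep3B control arrays. It moved the opposite way to CDH6, rising in Huh7 (0.95 ± 0.10) and falling in Hep3B (-0.61 ± 0.10), with a difference of 1.56 ± 0.14 (adjusted p = 0.00059).

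LRP1, an endocytic receptor that clears lipoproteins and proteases, also rose in Huh7 (0.74 ± 0.13) and fell in Hep3B (-0.65 ± 0.13; difference 1.39 ± 0.19, adjusted p = 0.00505). THBS1, thrombospondin 1, a matrix glycoprotein, read 11.83, 11.64 and 11.89 on the Huh7 siRNA arrays against 10.53, 10.47 and 10.79 on the Huh7 control arrays, and 14.60, 15.08 and 15.07 on the Hep3B siRNA arrays against 12.42, 12.50 and 12.54 on the Hep3B control arrays. It rose in both lines, less in Huh7 (1.19 ± 0.14) than in Hep3B (2.43 ± 0.14; difference -1.25 ± 0.19). ITGAV, the integrin alpha V chain, rose more in Huh7 (1.5) than in Hep3B (0.79), but its call held in 1 of the 12 leave-one-out fits. FLRT2, a guidance and adhesion protein, had -0.25 ± 0.14 in Huh7 and rose in Hep3B (1.70 ± 0.14), a difference of -1.95 ± 0.20 (adjusted p = 0.00114). Of 17 matrix, adhesion and EMT genes, 2 were called above and 3 below (29.4% in all, beside 6.65% of all genes).

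YAP and TAZ targets are genes under the Hippo pathway of cell contact and tension. Of 18, 13 rose in Huh7, and 12 rose and 2 fell in Hep3B. Of all 7456 genes, 1180 rose in Huh7, and 1629 rose and 1387 fell in Hep3B. All 4 groups were above the limit for 13 of the 18. A gene that entered through 1 group had to differ in that line, so the counts are descriptions. The 3 called in the difference (16.7%, beside 6.65% of all genes), ANKRD1, CCN1 and DOCK5, all lay above. ANKRD1, a cardiac ankyrin repeat protein, read 12.84, 12.95 and 13.06 on the Huh7 siRNA arrays against 8.91, 8.86 and 8.5 on the Huh7 control arrays, and 8.16, 8.36 and 8.43 on the Hep3B siRNA arrays against 5.02, 5.20 and 4.97 on the Hep3B control arrays. Both lines separated fully, and the difference of 0.94 ± 0.17 (adjusted p = 0.0212) held in 10 of the 12 leave-one-out fits, with a Hep3B control level at or below 5.5, so the Hep3B rise is a lower bound, the difference is an upper bound and its direction is not settled. CCN1 rose in both lines, 1.57 ± 0.08 in Huh7 and 0.67 ± 0.08 in Hep3B, where its control level was likewise at or below 5.5 (adjusted p = 0.00464 for the difference), so the same limit holds for it. DOCK5, an activator of Rac, had 0.22 ± 0.07 in Huh7 and fell in Hep3B (-0.41 ± 0.07). For the 18 genes the median difference was 0.19, beside -0.06 over all 7456.

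Metabolic genes of the liver were called in both directions. CPS1, the first enzyme of the urea cycle, read 6.05, 6.14 and 5.70 on the Huh7 siRNA arrays against 7.34, 7.37 and 7.53 on the Huh7 control arrays, and 8.91, 9.08 and 9.09 on the Hep3B siRNA arrays against 8.58, 8.63 and 8.56 on the Hep3B control arrays. It fell in Huh7 to 0.366-fold of control (-1.45 ± 0.11) and rose 1.35-fold in Hep3B (0.44 ± 0.11), a difference of -1.89 ± 0.16 (adjusted p = 0.000461). ASS1, the next urea cycle synthase, had -0.14 ± 0.13 in Huh7 and fell in Hep3B (-1.1 ± 0.13), in 6 of the 12 leave-one-out fits. GLUL, glutamine synthetase, fell in Huh7 (-0.60 ± 0.09) with 0.19 ± 0.09 in Hep3B (difference -0.79 ± 0.13, adjusted p = 0.0109). HAL, histidine ammonia-lyase, had 0.09 ± 0.10 in Huh7 and fell in Hep3B to 0.371-fold of control (difference 1.52 ± 0.14, adjusted p = 0.000593).

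ATP10D, a phospholipid flippase, read 6.89, 7.0 and 6.76 on the Huh7 siRNA arrays against 7.0, 6.95 and 7.22 on the Huh7 control arrays, and 7.48, 7.36 and 7.34 on the Hep3B siRNA arrays against 10.01, 10.00 and 9.98 on the Hep3B control arrays. Its Huh7 arrays overlapped between treatments (-0.17 ± 0.09, adjusted p = 0.345), it fell in Hep3B to 0.165-fold of control, and its difference of 2.43 ± 0.13 (adjusted p = 3.7e-05) was the largest above 0. Huh7 minus Hep3B was -0.51 among siRNA arrays and -2.94 among controls. In the list of fatty acid synthesis, storage and oxidation, 4 of 20 genes were called, beside 496 of all 7456 genes (6.65%). All 4 lay below, as did 265 of the 496. The median difference of the list was -0.30, beside -0.06 over all 7456 genes. GPAM, which starts triglyceride synthesis, had -0.36 ± 0.16 in Huh7 and rose in Hep3B (1.41 ± 0.16) (difference -1.77 ± 0.23, adjusted p = 0.00418). CPT1A, the gate of mitochondrial fatty acid import, fell in Huh7 (-0.89 ± 0.12) with 0.07 ± 0.12 in Hep3B, in 8 of the 12 leave-one-out fits. ACSL4, an acyl-CoA synthetase, fell in both lines, -1.28 in Huh7 and -0.54 in Hep3B (adjusted p = 0.00868 for the difference).

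Of 21 genes of the NRF2, pentose phosphate and glutathione list, 1 was called above and 5 below (median -0.31). The share called was 28.6%, beside 6.65% of all genes. GCLM, a subunit of glutathione synthesis, had -0.21 ± 0.11 in Huh7 and rose in Hep3B (0.85 ± 0.11), while GSTP1, a glutathione transferase, fell in Huh7 (-0.95 ± 0.10) with 0.04 ± 0.10 in Hep3B. AKR1B10, an aldo-keto reductase often raised in liver cancer, rose in both lines, 1.51 ± 0.09 in Huh7 and 2.33 ± 0.09 in Hep3B, where the control level was at or below 5.5, so that the value is a lower bound and the difference an upper one. The differences were -1.06, -0.99 and -0.82 for GCLM, GSTP1 and AKR1B10. HIF1A, the oxygen-regulated factor, was named after its values were seen; it read 16.67, 16.67 and 16.62 on the Huh7 siRNA arrays against 17.15, 16.99 and 16.91 on the Huh7 control arrays, and 14.20, 14.31 and 14.29 on the Hep3B siRNA arrays against 13.90, 13.95 and 13.91 on the Hep3B control arrays. HIF1A fell in Huh7 (-0.36 ± 0.07) and rose in Hep3B (0.35 ± 0.07). The 22 genes of glycolysis and hypoxia held 1 call, TXNIP (4.55%, beside 6.65% of all genes).

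Most genes of mitosis fell in both lines. Of 32 G2/M genes, 29 fell in Huh7 and 30 in Hep3B, beside 1326 and 1387 of all 7456 genes. The difference was called for 3 of the 32 (9.38%, beside 6.65% of all genes), and its median was 0.05. The 3 were KIF20A (-0.80 ± 0.11) and HMMR (-0.78 ± 0.13), mitotic spindle proteins that fell in both lines and more in Huh7, and ECT2 (0.52 ± 0.10). ECT2, a cytokinesis factor, was called as falling in Hep3B alone. Of 34 replication genes, MCM6, a subunit of the replicative helicase, and CCNE2, cyclin E2, were called, both below, a share of 5.88% beside 6.65% of all genes. The CCNE2 call held in 2 of the 12 leave-one-out fits (adjusted p up to 0.0881). MCM6 read 8.89, 8.98 and 9.24 on the Huh7 siRNA arrays against 9.89, 9.82 and 10.07 on the Huh7 control arrays, and 9.79, 9.79 and 9.80 on the Hep3B siRNA arrays against 9.65, 9.63 and 9.71 on the Hep3B control arrays. The gene fell in Huh7 (-0.89 ± 0.10) and had 0.13 ± 0.10 in Hep3B (adjusted p = 0.53), with a difference of -1.02 ± 0.14 (adjusted p = 0.00468). CCND1, cyclin D1, which carries growth signals into the cycle, read 10.20, 10.19 and 9.93 on the Huh7 siRNA arrays against 10.29, 10.20 and 10.28 on the Huh7 control arrays, and 8.67, 8.59 and 8.70 on the Hep3B siRNA arrays against 9.91, 9.99 and 9.91 on the Hep3B control arrays. Its Huh7 arrays were not separated (-0.15 ± 0.08), it fell in Hep3B (-1.28 ± 0.08), and the difference was 1.13 ± 0.12 (adjusted p = 0.00114).

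In the BCL2 family, which sets the threshold of apoptosis, 2 of 5 genes were called (40.0%, beside 6.65% of all genes), both below. BCL2L11 (BIM), a pro-apoptotic BH3 protein, read 7.67, 7.71 and 7.58 on the Huh7 siRNA arrays against 8.23, 8.29 and 8.33 on the Huh7 control arrays, and 7.66, 7.67 and 7.89 on the Hep3B siRNA arrays against 7.34, 7.34 and 7.26 on the Hep3B control arrays. It fell in Huh7 (-0.64 ± 0.08) and rose in Hep3B (0.42 ± 0.08), a difference of -1.06 ± 0.11 (adjusted p = 0.00126). BMF, a BH3 protein too, was called at -0.87 ± 0.17 in 3 of the 12 leave-one-out fits. Oxidative phosphorylation (20 genes, 4 at an unadjusted p under 0.05) and cytosolic ribosomal proteins (16 genes, 2 at that level) held no difference called by limma. A p that misses the threshold does not show that the lines responded alike.

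The largest differences above 0 included genes called in Huh7 alone. MOSPD1, a small membrane protein, read 11.87, 12.28 and 11.76 on the Huh7 siRNA arrays against 10.54, 10.55 and 10.24 on the Huh7 control arrays, and 10.34, 10.31 and 10.43 on the Hep3B siRNA arrays against 10.12, 10.18 and 10.19 on the Hep3B control arrays. It rose 2.88-fold in Huh7 and had 0.19 ± 0.13 in Hep3B (difference 1.33 ± 0.18, adjusted p = 0.00505). RRAGC, a Rag GTPase that recruits mTORC1 to lysosomes, read 8.78, 8.66 and 8.95 on the Huh7 siRNA arrays against 7.29, 7.25 and 7.42 on the Huh7 control arrays, and 6.75, 6.86 and 6.84 on the Hep3B siRNA arrays against 6.66, 6.57 and 6.75 on the Hep3B control arrays. Its siRNA arrays stood above control by 1.47 ± 0.09 in Huh7, and in Hep3B by 0.16 ± 0.09 (adjusted p = 0.378), a difference of 1.32 ± 0.13 (adjusted p = 0.000825). PACS1, a sorting protein of the trans-Golgi network, rose 2.4-fold in Huh7 and had 0.00 ± 0.07 in Hep3B (difference 1.26 ± 0.10, adjusted p = 0.000403). DIAPH2, a formin that assembles actin filaments, rose in Huh7 (0.46 ± 0.10) and fell in Hep3B (-0.86 ± 0.10; difference 1.32 ± 0.14, adjusted p = 0.00142).

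KCNT2, a potassium channel, and LOX, a collagen crosslinking enzyme, had 0.19 and -0.11 in Huh7 and fell in Hep3B, by 1.11 and 1.4. The LOX call held in 6 of the 12 leave-one-out fits. Other opposite responses were those of ABCC2, the bile canalicular export pump (0.35 ± 0.06 in Huh7 and -0.32 ± 0.06 in Hep3B), the formin DIAPH3 (0.36 in Huh7 and -0.75 in Hep3B) and the lysosomal mannosidase MANBA (0.72 in Huh7 and -0.35 in Hep3B).

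**Figure D4:**
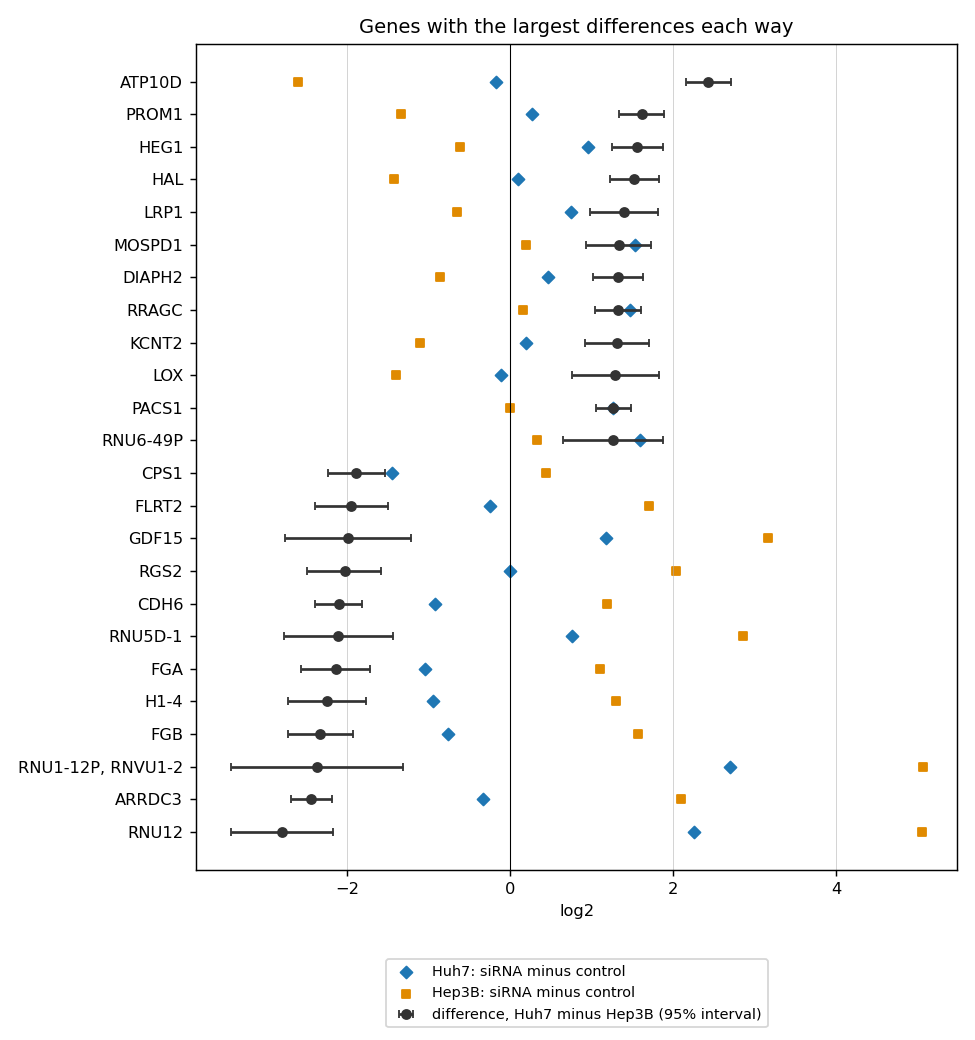
siRNA effects in Huh7 (diamonds) and Hep3B (squares) and their difference (circles with 95% intervals, n = 3 arrays per group), log2, for the 12 genes with the largest called differences each way. Effects lie on opposite sides of 0 in genes such as FGB, H1-4 and HEG1, and in the same direction in GDF15; RNU12 (both lines) and RNU5D-1 (Huh7) had control levels at or below 5.5, so their differences are not exact.

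Some of the remaining lists held a few called genes. No difference was called in IL6, JAK and STAT signalling (5 genes), metallothioneins (5) or RNA interference machinery (6). In the type I interferon list, EIF2AK2, the RNA-activated kinase PKR, rose in Huh7 (0.55 ± 0.09) and IFIH1, the RNA sensor MDA5, rose in Hep3B (0.73 ± 0.10), but their calls in the difference held in 0 and 1 of the 12 leave-one-out fits. The chemokine CCL20, TNFAIP2 and the IkB-like regulator NFKBIZ had -0.24, 0.24 and -0.21 in Huh7, none called; in Hep3B CCL20 (-0.91 ± 0.10) and TNFAIP2 (-0.45 ± 0.10) fell and NFKBIZ (0.61 ± 0.08) rose. Leaving out 1 array kept the difference of CCL20 called in 4 of 12 fits and that of TNFAIP2 in 3. SKIL, a TGF-beta antagonist, rose less in Huh7 (0.57) than in Hep3B (1.29), a call kept in 2 of those fits. HSPH1, a heat shock protein, and CLK1, a splicing kinase, were called in the difference (0.60 and -0.46) and in neither line, each call kept in 1 of the 12 leave-one-out fits. Of 24 proteasome genes PSMD12 (-0.64) and PSMA4 (-0.50) were called (8.33%), and of 20 cholesterol genes INSIG1 (-0.71), which holds back cholesterol synthesis (5.0%), shares near the 6.65% of all genes.

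**Figure D5:**
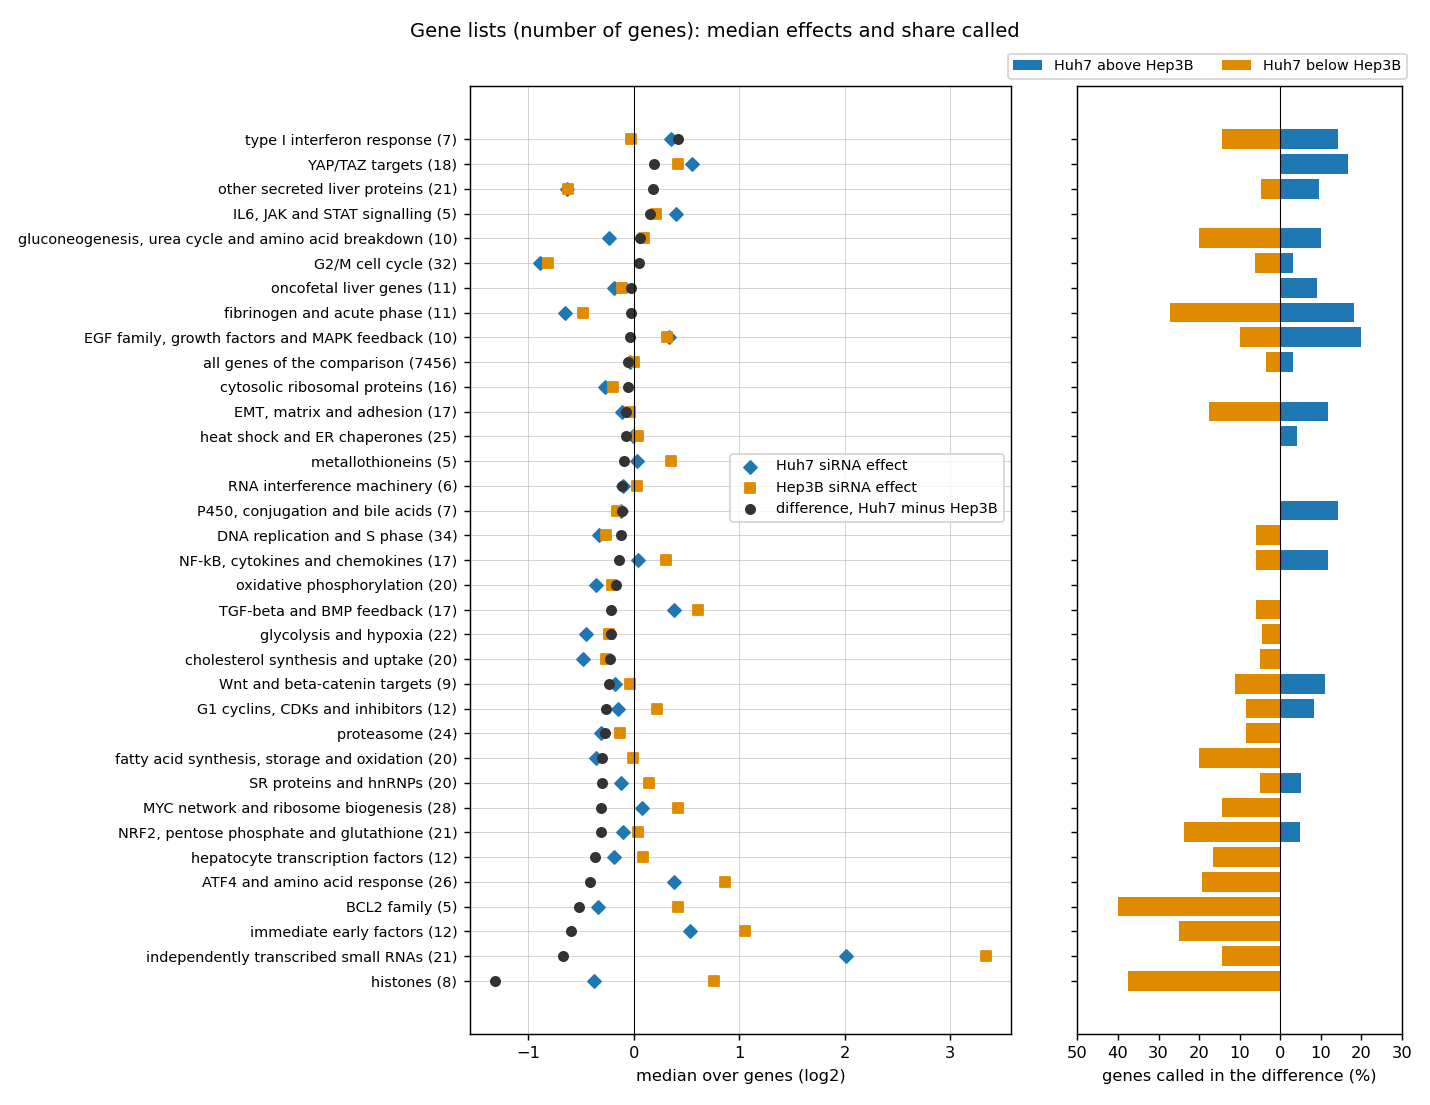
Left, median siRNA effect in Huh7 (diamonds) and Hep3B (squares) and median difference (circles), log2, for each list with 5 or more genes above the limit, other than the hepatocyte markers and 1 list not reported here; right, the share called in the difference, by direction. Histones, immediate early factors and small RNAs lie lowest in the difference, and the median over all 7456 genes was -0.06.

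Genes with like responses stood beside these. For 905 genes called in the same direction in both lines, the 95% interval of the difference lay within 0.5 log2 units on either side of 0. TPM4, a tropomyosin, read 11.28, 11.40 and 11.60 on the Huh7 siRNA arrays against 9.60, 9.74 and 9.59 on the Huh7 control arrays, and 10.47, 10.45 and 10.43 on the Hep3B siRNA arrays against 8.70, 8.82 and 8.68 on the Hep3B control arrays. Its rises of 1.78 ± 0.09 in Huh7 and 1.72 ± 0.09 in Hep3B differed by 0.07 ± 0.12 (95% interval -0.21 to 0.34). AJUBA, a LIM protein of the Hippo pathway, rose 1.69 in Huh7 and 1.73 in Hep3B, KDM2A, a histone demethylase, 1.51 in Huh7 and 1.33 in Hep3B, and the zinc exporter SLC30A1 1.36 in Huh7 and 1.44 in Hep3B. Among falling genes, ALDH3A2, a fatty aldehyde dehydrogenase, had -1.44 ± 0.09 in Huh7 and -1.51 ± 0.09 in Hep3B, with an interval of the difference of -0.23 to 0.35. NAALAD2, CAPRIN2 and the chloride cotransporter SLC12A2 fell by 1.52, 1.36 and 1.22 in Huh7 and by 1.43, 1.40 and 1.40 in Hep3B.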

How the data were processed

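RNA of 12 samples was measured on 12 arrays, 3 per group. The deposited table holds 1 log2 value per row and array, per the values themselves, and Agilent Feature Extraction 10.7.1.1 stands in the submitters' processing notes. Against this, row names are Affymetrix transcript clusters and the labelling is given as Affymetrix, with Cy3. How the authors summarised probes, whether they normalized arrays to each other, and the genome build are not given in the sources used here.

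Of 70523 rows, 67528 transcript clusters were kept. The probe table gave 1 symbol to 23781 of 25324 probes, several to 1543, and 306 symbols were updated by gene ID or synonym. For a symbol with several probes, the brightest on average was kept. Array medians ran from 3.819 to 3.943, and arrays were quantile normalized. Group means and their contrast were fitted to all 66158 rows and 12 arrays with limma 3.58.1 in R 4.3.3 (empirical Bayes moderation, trend of the spread with the mean, 10.84 degrees of freedom), and p-values were two-sided and Benjamini-Hochberg adjusted over all rows. Tables and figures used Python 3.11.15, pandas 2.3.3 and matplotlib 3.10.9. The number of arrays limits the precision: the median SE of a difference was 0.13.

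The genes compared, the 40 gene lists and the rule for named genes were chosen with earlier results of these data known, and the 6 lists on lysosomes, mTORC1, actin nucleators, snRNA transcription, alpha-arrestins and cadherins after the values were seen; 1 of the 40 lists is not reported here. Named were the 12 largest called differences each way, the 6 largest opposite responses each way, up to 3 called genes per list, and 8 genes with like responses, with identical rows counted once. Also named, after their values were seen, were ZNF143, INTS2, ICE1, POLR2A, POLR3G, HIF1A, MIR21, RRAGD, MTOR, FNIP1, LAMP2, ASAH1, FHDC1, SPIRE1, JMY, PRKAA2, H2AC20, H2BC15, RNU11, AFP, GPC3, MYC, RNU6-39P, SNORD3C, CP, C3 and HEATR1, and genes given only by their list and difference. In simulated data of 66158 rows with independent noise, 100 genes were given a difference of 0.5 and 100 a difference of 1. The procedure recovered 5% and 81% of them, and 4 of 90 calls (4.44%) were false. Far fewer genes differed there than were called in the data, and real rows are not independent. The simulation therefore gives neither the power nor the false call rate of this comparison. Alternatives were deposited values, median centring, cyclic loess, no trend, array weights, other probe rules, other limits, a fit over the compared genes alone, replicate blocks and leaving out each array.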

Additional observations from a re-analysis of the deposited data

Results flagged for a closer look

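Every gene named in the text whose difference between the lines passed the limma test is given here with that difference (log2, Huh7 siRNA effect minus Hep3B siRNA effect), since a response that differs between the lines is what the design asks about. Genes that fell in Huh7 and rose in Hep3B were ARRDC3 (-2.44), FGB (-2.33), H1-4 (-2.25), FGA (-2.14), CDH6 (-2.10), CPS1 (-1.89), BCL2L11 (-1.06) and HIF1A (-0.71). Genes that rose in Huh7 and fell in Hep3B were ABCC2 (0.66), EGFR (1.02), MANBA (1.07), DIAPH3 (1.11), DIAPH2 (1.32), LRP1 (1.39) and HEG1 (1.56).

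Genes called in Hep3B alone, with a rise there, were RNU5D-1 (-2.11), RGS2 (-2.03), FLRT2 (-1.95), DDIT4 (-1.86), GPAM (-1.77), H2AC6 (-1.54), SLC38A2 (-1.49) and JUNB (-1.47). Also in this set were H4C3 (-1.37), CDH2 (-1.32), ATF3 (-1.29), DUSP10 (-1.24), PRKAA2 (-1.23), MIR21 (-1.16), H2AC20 (-1.12) and GCLM (-1.06). The same pattern was shown by H2BC15 (-1.06), TXNIP (-1.01), INTS2 (-0.92), ZNF143 (-0.92), BMF (-0.87), NFKBIZ (-0.82), ODC1 (-0.72) and INSIG1 (-0.71). This held too for IFIH1 (-0.66), PSMD12 (-0.64), ICE1 (-0.62), NCL (-0.61), FOXA2 (-0.52) and HEATR1 (-0.48).

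Genes called in Hep3B alone, with a fall there, were SRSF11 (0.48), ECT2 (0.52), DOCK5 (0.64), CCL20 (0.67), MTOR (0.68), TNFAIP2 (0.69), ASAH1 (0.70) and ASS1 (0.96). Also in this set were RRAGD (0.99), CP (1.06), CCND1 (1.13), LOX (1.29), KCNT2 (1.31), HAL (1.52), PROM1 (1.61) and ATP10D (2.43). Genes called in Huh7 alone, with a fall there, were FGG (-1.33), POLR2A (-1.1), MCM6 (-1.02), GSTP1 (-0.99), CPT1A (-0.96), POLR3G (-0.89), GLUL (-0.79) and CCNE2 (-0.61). Also in this set were PSMA4 (-0.50) and RBL2 (-0.46). Genes called in Huh7 alone, with a rise there, were DUSP6 (0.57), EIF2AK2 (0.58), FNIP1 (0.67), SPIRE1 (0.89), FHDC1 (1.04), RNU6-49P (1.26), PACS1 (1.26), RRAGC (1.32) and MOSPD1 (1.33).

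Rises in both lines with a fitted effect larger in Hep3B were seen in RNU12 (-2.80), RNVU1-2 (-2.37), RNU1-12P (-2.37), GDF15 (-1.99), JMY (-1.30), THBS1 (-1.25), KLF6 (-1.08) and AKR1B10 (-0.82). Also in this set were SKIL (-0.72) and DDX21 (-0.64). Falls in both lines that were larger in Hep3B were seen in C5 (0.53), LAMP2 (0.85), C3 (0.93) and TTR (1.03). Rises in both lines with a fitted effect larger in Huh7 were seen in ITGAV (0.71), CCN1 (0.90) and ANKRD1 (0.94). Falls in both lines that were larger in Huh7 were seen in ONECUT1 (-0.91), KIF20A (-0.80), HMMR (-0.78), ACSL4 (-0.74) and ALB (-0.67). Called in the difference and in neither line were CLK1 (-0.46) and HSPH1 (0.60). RNVU1-2 and RNU1-12P held identical values and count as 1 row of signal. MIR21 is the row of the precursor gene and says nothing of the mature miRNA. Control levels at or below 5.5 make some differences inexact. Those of ANKRD1, CCN1, AKR1B10, H2AC6 and MIR21 are upper bounds, so that a larger rise in Huh7 is not settled for ANKRD1 and CCN1, those of RNU5D-1 and FHDC1 are lower bounds, and those of RNU12, DDIT4, JUNB and ATF3 have no bound. Without Huh7 control array 1, 21 of these 104 calls were lost, and 67 of the 104 were kept in all 12 fits that left out 1 array. What underlies these differences was not tested.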

How the results depend on the processing

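No named call changed sign under any of the alternatives run, and 224 of the 496 called genes were called in all 12 fits that left out 1 array. Leaving out 1 array gave 244 to 561 called genes (111 to 286 with Huh7 above, 133 to 285 below), 27 to 38 opposite responses, 15 to 37 same-direction responses larger in Huh7, 34 to 89 larger in Hep3B, and 47 to 88 called list genes. The lowest count came without Hep3B control array 2 and the highest without Huh7 siRNA array 3. Fewer arrays are part of that construction. Median centring called 249 genes (111 above, 138 below), with 19 opposite responses, 39 same-direction responses larger in Hep3B, and 45 list genes against 75. The deposited values called 414 genes with 25 opposite responses. The cause was not tested. A fit over the compared genes alone called 1518 (644 above, 874 below), with 135 opposite responses, 162 and 311 same-direction responses larger in Huh7 and in Hep3B, and 165 list genes; fewer rows are adjusted over there. A minimum difference of 1 left 106 genes (37 above, 69 below), 20 of them opposite, with 5 and 20 larger in Huh7 and in Hep3B. Replicate numbers were not used as pairs. Same-numbered arrays of a line correlated in their deviations at -0.258 to 0.252, above 0.1 in 3 of 6 pairs, and differently numbered ones at -0.254 to 0.388. With 3 arrays per group this check cannot exclude pairing. With the replicate number as a block within each line, 114 genes were called (52 above, 62 below), 19 opposite, 7 and 11 larger in Huh7 and in Hep3B, and 26 list genes, and with a block over all arrays 351. The other settings (cyclic loess 465, no trend 570, array weights 606, other probe rules 490 and 502, limits of 5 and 6 with 531 and 458, all 4 groups above 5.5 with 464) stayed within 1.5 times the reported count. Signal over background limits genes near 5.5.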

Other observations

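Gene groups listed after the values were seen showed further splits between the lines, given as values only. Of 24 lysosome genes above the limit, 5 were called in the difference, all with Huh7 above Hep3B (median 0.24, against -0.06 over all 7456 genes, of which 6.65% were called). Among them LAMP2, a lysosomal membrane protein, fell in both lines, -0.46 ± 0.11 in Huh7 and -1.31 ± 0.11 in Hep3B (difference 0.85, kept in 4 of the 12 leave-one-out fits). ASAH1, acid ceramidase, had -0.28 ± 0.08 in Huh7 and fell in Hep3B (-0.99 ± 0.08), and MANBA, a mannosidase, rose in Huh7 (0.72 ± 0.08) and fell in Hep3B (-0.35 ± 0.08). In nutrient signalling to mTORC1, 6 of 18 genes were called (33.3%), 4 above and 2 below. RRAGD, a Rag GTPase, read 9.05, 9.04 and 8.77 on the Huh7 siRNA arrays against 8.91, 8.76 and 8.53 on the Huh7 control arrays, and 7.05, 7.0 and 7.08 on the Hep3B siRNA arrays against 7.71, 7.91 and 7.82 on the Hep3B control arrays. Its Huh7 arrays overlapped between treatments and it fell in Hep3B (-0.77 ± 0.11), a difference of 0.99 ± 0.16 (limma, adjusted p = 0.0103). MTOR itself had 0.19 ± 0.08 in Huh7 and fell in Hep3B (-0.49 ± 0.08), and FNIP1, a folliculin partner, rose in Huh7 (0.73 ± 0.08) with 0.05 ± 0.08 in Hep3B. PRKAA2, a catalytic subunit of AMP-activated kinase, lay on the other side, with 0.22 ± 0.11 in Huh7 and a rise in Hep3B of 1.45 ± 0.11 (difference -1.23 ± 0.16).

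Of 11 actin nucleators, 4 were called above and 1 below (45.5% in all, beside 6.65% of all genes). The formins DIAPH2, DIAPH3 and FHDC1 and the nucleator SPIRE1 had differences of 1.32, 1.11, 1.04 and 0.89, with the Huh7 control level of FHDC1 at or below 5.5. JMY, a nucleator and p300 cofactor, rose less in Huh7 (0.65 ± 0.13) than in Hep3B (1.95 ± 0.13; difference -1.30 ± 0.19). Among 38 genes for the transcription and processing of small nuclear RNAs, 10 were called (26.3%), all with Huh7 below Hep3B (median -0.26). ZNF143, a factor of snRNA promoters, read 8.29, 8.35 and 8.19 on the Huh7 siRNA arrays against 8.46, 8.38 and 8.37 on the Huh7 control arrays, and 9.11, 9.06 and 9.07 on the Hep3B siRNA arrays against 8.28, 8.19 and 8.39 on the Hep3B control arrays. It had -0.12 ± 0.07 in Huh7 and rose in Hep3B (0.79 ± 0.07), a difference of -0.92 ± 0.10 (limma, adjusted p = 0.0019). INTS2, a subunit of the Integrator complex, had -0.09 in Huh7 and rose in Hep3B (0.83), and ICE1, of the little elongation complex, had 0.18 in Huh7 and rose in Hep3B (0.80), a difference kept in 2 of the 12 leave-one-out fits. POLR2A, the largest subunit of RNA polymerase II, fell in Huh7 (-1.25 ± 0.10) with -0.15 ± 0.10 in Hep3B, and POLR3G, of RNA polymerase III, fell in Huh7 (-0.73 ± 0.11) with 0.17 ± 0.11 in Hep3B. The part of these levels in the small RNA differences was not tested. Both alpha-arrestins and 3 of 6 cadherins above the limit were called, beside 6.65% of all genes. The lists of this section were drawn up after the values of their genes were seen. A high share called in them can come from that choice alone.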
